A study of Mus musculus with 9 samples.

Results

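The 10 genes described here mark macrophages and monocytes: Csf1r, Ccr2, Mrc1, Cd163, Cd68, C1qa, C1qb, C1qc, Lyz2 and Retnla. They were taken by gene symbol, and all 10 were found among the 23238 symbols of the deposited count tables. The set was chosen by its CPM levels in these same libraries, with the differences between the groups already known, so the differences given for its members are a description and carry no test. Tests are given for genes outside this set.

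RNA came from the gastrocnemius, a calf muscle, of female C57BL/6 mice given as 4 weeks old, with 3 samples in each of 3 groups. RP mice received 4 intraperitoneal injections of cisplatin at 3 mg/kg, given on alternate days, and 100 mg/kg of RP in water over 9 consecutive days by mouth. The series title names an extract of the peony Paeonia lactiflora; the labels do not spell out RP. Cisplatin mice received the same cisplatin injections and water by mouth, and Normal mice received saline injections and water by mouth. RP and Cisplatin mice thus shared the cisplatin dosing. No group took RP with saline injections, and what RP does in muscle not exposed to cisplatin cannot be told apart from what it does after cisplatin. The labels do not say that every sample was a separate mouse; p-values then reflect only how these samples vary. Cisplatin is a platinum drug that crosslinks DNA.

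Skeletal muscle holds resident macrophages between its fibres, in the connective tissue sheaths and beside vessels. They depend on signalling through the CSF1 receptor, clear debris, take up haemoglobin and glycoproteins through scavenger receptors and make most of the C1q that starts the classical complement pathway. Monocytes made in the bone marrow enter muscle from the blood, guided by the chemokine receptor CCR2, and can turn into macrophages there. CD68 and lysozyme are general markers of the mononuclear phagocytes, whereas CD206 (Mrc1), CD163 and RELMα (Retnla) are associated with resident or alternatively activated macrophages.

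Levels are read counts scaled to library size (CPM) with TMM, a method that corrects for differences in library composition. Libraries held 8196030 to 10678342 counts, and the 12 muscle fibre markers summed to 139394 to 159201 CPM in RP, 104028 to 138132 in Cisplatin and 135641 to 151235 in Normal; 5 of them fell and 2 rose in Cisplatin against Normal. The ribosomal precursor Rn45s took 7.38 to 11.8% of counts in RP, 9.23 to 12.1% in Cisplatin and 12.6 to 12.8% in Normal. Libraries of this kind yield about 1 tag per transcript molecule, near its end, so counts are not scaled by length. Levels are compared between groups rather than between genes. Group values below are mean ± SD over 3 libraries.

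In Cisplatin against Normal, 9 of the 10 genes were lower and Cd68 was higher, with groups that did not overlap, as 31.9% of all genes were lower and 30.3% higher in the same sense. Their promoters are shown because these 9 moved together, and because PU.1, a factor that specifies the myeloid lineage, binds a purine-rich core. RefSeq promoters on GRCm38.p6 were matched by symbol for 8 of the 10 genes, all but Csf1r and C1qa. The 250 bases before the RefSeq start site were searched on both strands for GAGGAA, the PU.1 core, which 5 of the 8 held and 23.3% of 32851 mouse promoters of the same length held. The AP-1 letters TGANTCA occurred in Cd68 alone of the 8 (6.75% of promoters), with the matches starting 149 and 24 bases before the start site. The STAT6 spacing, TTC and GAA with 4 bases between them and bound by the factor that acts downstream of IL-4, occurred in Retnla alone (5.85%), starting 145 bases before the start site. The MITF and TFE letters TCANGTGA, found near lysosomal genes, occurred in 0 of the 8 (3.45%). No match overlapped another motif, and a match is a run of letters, not a shown binding site. GENCODE places the start of some genes farther upstream than RefSeq does, so that the window holds exon by that annotation over 233 bases in Ccr2, 151 in C1qc, 58 in Retnla, 49 in Lyz2 and 22 in Mrc1, and over 0 in C1qb, Cd163 and Cd68. The windows with GAGGAA were those of Cd68, Retnla, C1qb, C1qc and Mrc1. Of these, 3 are printed 5′ to 3′ along the gene's strand, with GAGGAA or its reverse complement in capitals. They are Cd68, which ran against the rest, C1qb, whose RP mean was nearest to Normal among the other 9, and Mrc1, with 3 matches.
Cd68, chr11:69666171-69666420, minus strand: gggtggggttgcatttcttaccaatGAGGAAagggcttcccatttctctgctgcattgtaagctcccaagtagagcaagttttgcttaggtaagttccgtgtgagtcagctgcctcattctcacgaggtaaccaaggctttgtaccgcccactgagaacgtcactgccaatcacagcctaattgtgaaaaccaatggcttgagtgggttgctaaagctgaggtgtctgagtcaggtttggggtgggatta
C1qb, chr4:136886201-136886450, minus strand: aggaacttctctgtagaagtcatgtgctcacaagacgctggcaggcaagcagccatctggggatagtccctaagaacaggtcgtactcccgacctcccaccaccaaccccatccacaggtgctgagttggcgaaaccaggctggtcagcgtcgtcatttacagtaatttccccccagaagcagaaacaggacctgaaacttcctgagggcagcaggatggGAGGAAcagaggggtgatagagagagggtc
Mrc1, chr2:14229164-14229413, plus strand: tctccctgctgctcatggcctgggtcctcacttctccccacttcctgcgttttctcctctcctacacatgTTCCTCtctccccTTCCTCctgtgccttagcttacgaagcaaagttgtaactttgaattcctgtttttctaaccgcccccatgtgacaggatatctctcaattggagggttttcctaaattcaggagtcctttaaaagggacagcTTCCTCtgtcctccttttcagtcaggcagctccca

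Both surface receptors that define the lineage were far lower in Cisplatin muscle than in Normal muscle and only partly higher in RP muscle. Csf1r, the receptor for CSF1 and IL-34 on which macrophages depend, had 14.3, 24.8 and 17.3 CPM in the RP libraries, 9.75, 9.32 and 1.67 CPM in Cisplatin and 50.8, 65.0 and 63.4 CPM in Normal. The 3 groups did not overlap at any point, with RP between the other two. The log2 difference was -3.10 ± 0.40 (SE) in Cisplatin against Normal, 1.43 ± 0.39 in RP against Cisplatin and -1.67 ± 0.36 in RP against Normal. The third Cisplatin library held 14 Csf1r reads (95% counting interval 7.65 to 23.5), against 83 and 98 in its companions; without it the difference of Cisplatin from Normal was -2.63. In bulk tissue, fewer cells of a type and less RNA per cell cannot be told apart, which holds for every gene here. Csf1r overlaps Hmgxb3 on the opposite strand by 873 bases, and Hmgxb3 averaged 12.6 ± 2.92 CPM in RP, 10.9 ± 0.918 in Cisplatin and 12.5 ± 3.21 in Normal, with overlapping groups.

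Ccr2, the receptor for CCL2 that brings monocytes into tissue, lies on chromosome 9, 124101950 to 124113557, plus strand, of GRCm38. RP libraries had 3.72, 2.58 and 2.83 CPM, Cisplatin libraries 1.76, 0.856 and 0.952 CPM and Normal libraries 13.5, 10.6 and 13.4 CPM. Again no groups overlapped. Cisplatin rested on 15, 9 and 8 reads. The log2 difference was -3.39 ± 0.33 in Cisplatin against Normal and 1.36 ± 0.35 in RP against Cisplatin. RP stayed far below Normal, at -2.04 ± 0.30. Without the first Cisplatin library the differences were -3.77 in Cisplatin against Normal and 1.74 in RP against Cisplatin.

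The scavenger receptors Mrc1 and Cd163 had a like pattern, while Cd68 ran the other way. Mrc1 (chromosome 2, 14229392 to 14332057, plus strand) encodes the mannose receptor CD206, which takes up mannosylated glycoproteins. It had 12.3, 19.5 and 22.4 CPM in RP, 6.11, 11.03 and 4.52 CPM in Cisplatin and 33.9, 39.1 and 37.7 CPM in Normal. Every RP library lay above every Cisplatin library and below every Normal library. Its log2 difference was -2.33 ± 0.29 in Cisplatin against Normal, 1.30 ± 0.29 in RP against Cisplatin and -1.03 ± 0.27 in RP against Normal.

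Cd163 (chromosome 6, 124304656 to 124330527, plus strand) encodes the scavenger receptor for haptoglobin-haemoglobin complexes. RP libraries had 8.89, 17.3 and 13.8 CPM, Cisplatin libraries 5.76, 6.56 and 3.45 CPM and Normal libraries 19.6, 41.9 and 29.1 CPM. The groups kept the order of Mrc1 without overlap, although the Normal libraries spanned 2.14-fold. The log2 difference was -2.51 ± 0.32 in Cisplatin against Normal, 1.33 ± 0.33 in RP against Cisplatin and -1.18 ± 0.30 in RP against Normal.

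Cd68 (chromosome 11, 69664213 to 69666153, minus strand) encodes a heavily glycosylated protein of late endosomes and lysosomes. It had 3.20, 8.54 and 2.93 CPM in RP, 17.0, 17.1 and 25.3 CPM in Cisplatin and 4.71, 3.12 and 4.93 CPM in Normal. It was thus the only gene of the 10 with its highest level in Cisplatin, and the RP and Normal libraries overlapped. The log2 difference was 2.22 ± 0.37 in Cisplatin against Normal, -2.01 ± 0.36 in RP against Cisplatin and 0.21 ± 0.38 in RP against Normal. The second RP library stood above the other two, and without it RP against Normal was -0.47 and RP against Cisplatin was -2.68. The third Cisplatin library, lowest for most other members, was the highest for Cd68. The gene Eif4a1, a translation initiation helicase, ends 782 bases upstream of Cd68 on the same strand. Eif4a1 averaged 46.4 ± 2.22 CPM in RP, 98.6 ± 10.7 in Cisplatin and 33.4 ± 2.54 in Normal, and rose in Cisplatin against Normal (log2 1.56 ± 0.13, edgeR adjusted p = 7.79e-07); whether any of its reads were counted for Cd68 was not tested.

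**Figure D1:**
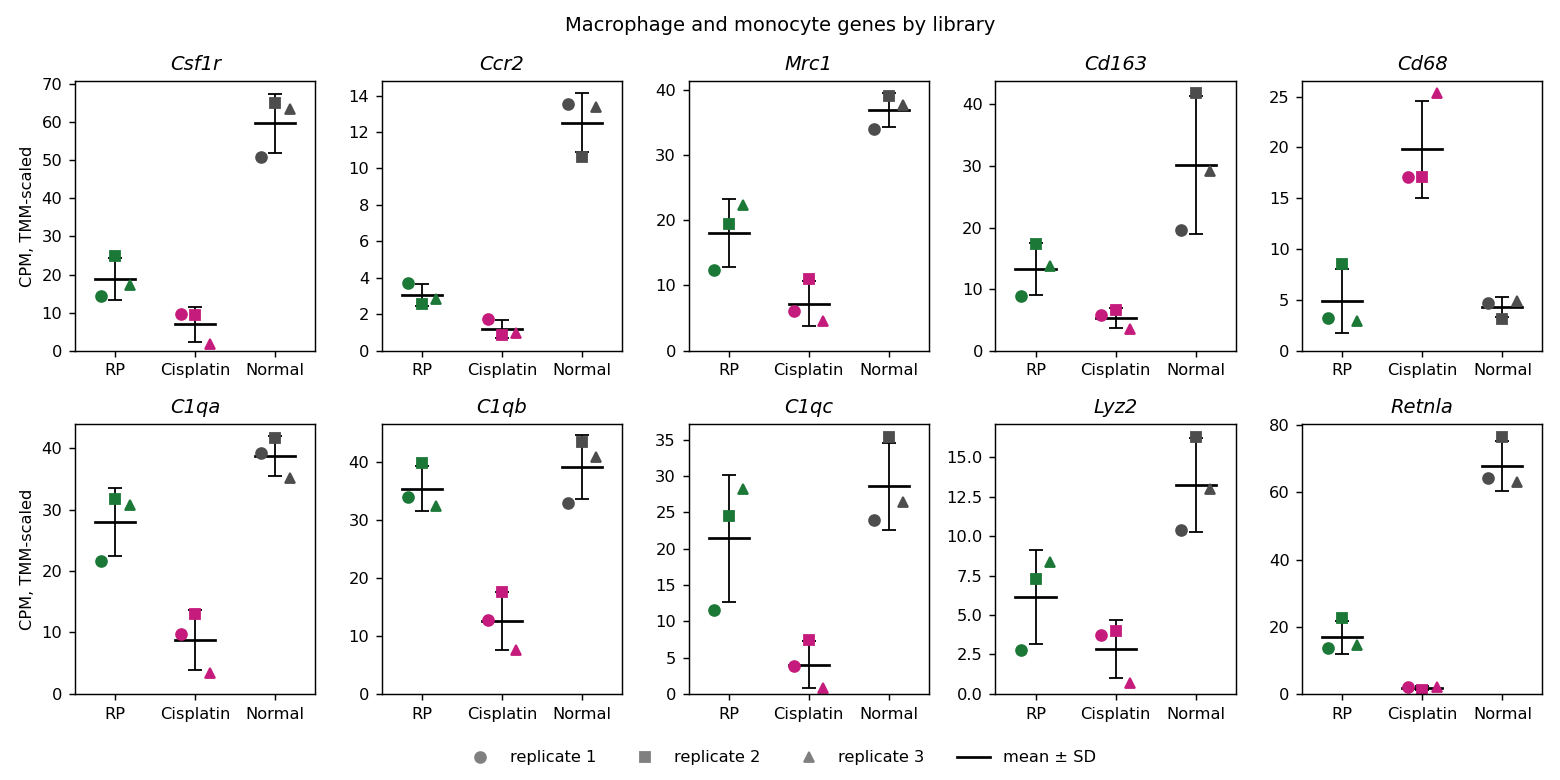
Level of each of the 10 genes in CPM (vertical axis, TMM-scaled, starting at 0) in the RP, Cisplatin and Normal libraries; symbols mark replicates, horizontal lines the mean and bars the SD over 3 libraries. Cd68 is highest in Cisplatin, and the other 9 genes are lowest there, with Retnla at 1.14 to 2.02 CPM in Cisplatin against 63.2 to 76.6 CPM in Normal.

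Of the 9 genes lower in Cisplatin, the C1q chains came closest to their Normal means in RP muscle. C1q is built from A, B and C chains that assemble together, and their genes lie side by side on the minus strand of chromosome 4: C1qb at 136880129 to 136886187, C1qc at 136889804 to 136893065 and C1qa at 136895917 to 136898803. The gaps between neighbours are 3616 and 2851 bases, and the whole cluster spans 18675 bases.

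C1qa had 21.6, 31.7 and 30.7 CPM in RP, 9.75, 13.02 and 3.45 CPM in Cisplatin and 39.3, 41.6 and 35.1 CPM in Normal, with no overlap between groups. C1qb had 34.0, 39.7 and 32.4 CPM in RP, 12.7, 17.5 and 7.50 CPM in Cisplatin and 32.9, 43.5 and 40.9 CPM in Normal. For C1qb the RP libraries overlapped the Normal ones and lay above all Cisplatin libraries. C1qc had 11.6, 24.5 and 28.1 CPM in RP, 3.88, 7.42 and 0.833 CPM in Cisplatin and 23.9, 35.4 and 26.4 CPM in Normal. C1qc likewise overlapped between RP and Normal, and the third Cisplatin library rested on 7 reads (95% counting interval 2.81 to 14.4).

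In Cisplatin against Normal the log2 differences were -2.13 ± 0.32 for C1qa, -1.63 ± 0.24 for C1qb and -2.78 ± 0.47 for C1qc. In RP against Cisplatin they were 1.66 ± 0.32, 1.48 ± 0.24 and 2.36 ± 0.47 for the same genes. Without the second Cisplatin library C1qc was at -3.59 in Cisplatin against Normal and 3.17 in RP against Cisplatin. In RP against Normal they were -0.47 ± 0.30, -0.14 ± 0.23 and -0.41 ± 0.42. The ratio of C1qc to C1qa reads was 0.398, 0.569 and 0.241 in the Cisplatin libraries and 0.609, 0.850 and 0.750 in the Normal libraries. These values did not overlap but lay close, the lowest rested on 7 and 29 reads, and a difference between the chains was not tested. In RP that ratio was 0.536, 0.774 and 0.918, which overlapped both.

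Among the secreted products, Retnla showed the widest difference of the 10. It encodes RELMα, a small secreted protein induced by IL-4 and IL-13 in macrophages, and lies on chromosome 16, 48842551 to 48844461, plus strand. RP libraries had 13.7, 22.5 and 14.4 CPM, Cisplatin libraries 1.997, 1.14 and 2.02 CPM and Normal libraries 64.3, 76.6 and 63.2 CPM. The Cisplatin libraries held 17, 12 and 17 reads, against 525 to 662 in Normal, so that the Cisplatin mean was 2.53% of the Normal mean. The log2 difference was -5.32 ± 0.27 in Cisplatin against Normal and 3.31 ± 0.27 in RP against Cisplatin. RP stayed below Normal at -2.01 ± 0.21. Retnla was not lowered further in the third Cisplatin library, unlike Csf1r or C1qc. Its paralog Retnlg, a neutrophil product whose last 300 transcript bases are 75.6% identical, rose in Cisplatin (log2 3.79 ± 0.70, adjusted p = 0.000481) to 7.86 ± 6.77 CPM, against 0.560 ± 0.374 CPM in Normal; the difference was 2.88 without the first Cisplatin library and 4.43 without the first Normal library.

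Lyz2 (chromosome 10, 117277331 to 117282321, minus strand) encodes the lysozyme of myeloid cells, which cuts bacterial cell walls. RP libraries had 2.79, 7.25 and 8.37 CPM, Cisplatin libraries 3.76, 3.99 and 0.714 CPM and Normal libraries 10.4, 16.3 and 12.995 CPM. It was the only member whose RP and Cisplatin libraries overlapped, through the first RP library with 27 reads. The log2 difference was -2.21 ± 0.48 in Cisplatin against Normal, 1.10 ± 0.48 in RP against Cisplatin and -1.10 ± 0.44 in RP against Normal. The near copy Lyz1, on the same chromosome, shares 93.8% of the last 300 transcript bases with Lyz2, so the division of reads between them is uncertain. Lyz1 fell in Cisplatin too, to 2.32 ± 0.884 CPM, against 6.54 ± 1.74 CPM in Normal (log2 -1.48 ± 0.40, adjusted p = 0.00644).

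**Figure D2:**
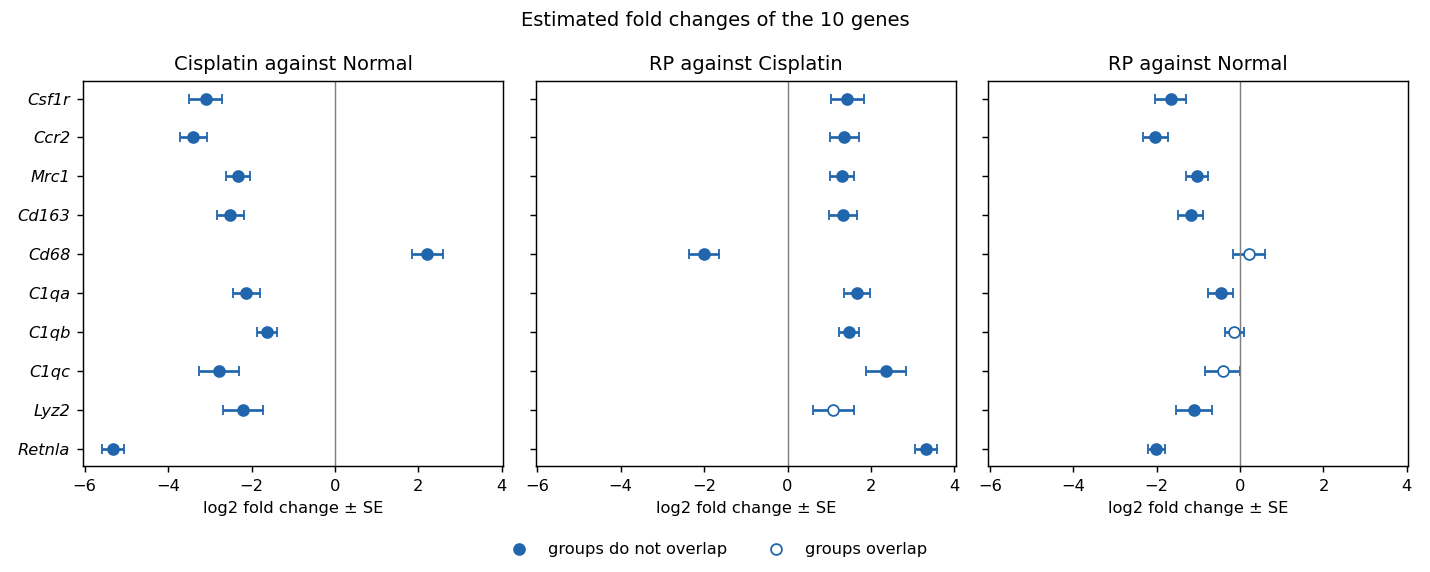
Estimated log2 fold change ± SE (horizontal axis) of each of the 10 genes in the 3 comparisons; filled points mark genes whose groups do not overlap. In RP against Normal the C1q chains sit between -0.47 and -0.14, while Ccr2 and Retnla sit near -2.

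Cd68 averaged 115% of its Normal mean in RP. The 9 genes lower in Cisplatin did not reach a common share of their Normal means in RP. The RP mean was 90.5% of the Normal mean for C1qb, 75.0% for C1qc and 72.4% for C1qa. It was 48.9% for Mrc1, 46.4% for Lyz2 and 44.2% for Cd163. It was 31.4% for Csf1r, 24.9% for Retnla and 24.3% for Ccr2. The complement chains thus headed the order of these 9 and the CCR2 and CSF1 receptors stood near its foot. The SD over the RP libraries was 10.9 to 48.1% of the RP mean for these 9 genes, and differences between neighbours in the order were not tested. The ratio of C1qb to Csf1r reads was 2.38, 1.60 and 1.88 in RP, 1.30, 1.88 and 4.5 in Cisplatin and 0.646, 0.669 and 0.645 in Normal. Both RP and Cisplatin lay above Normal in that ratio and overlapped each other.

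The balance of Cd68 to Csf1r differed among all 3 groups. There were 0.225, 0.344 and 0.170 Cd68 reads per Csf1r read in RP, 1.75, 1.84 and 15.2 in Cisplatin and 0.0926, 0.0480 and 0.0778 in Normal. No groups overlapped in this ratio, and the value of 15.2 divides by only 14 Csf1r reads. The ratio of Cd163 to Mrc1, a pair of scavenger receptors, overlapped among all 3 groups, from 0.577 to 1.07 in Normal.

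**Figure D3:**
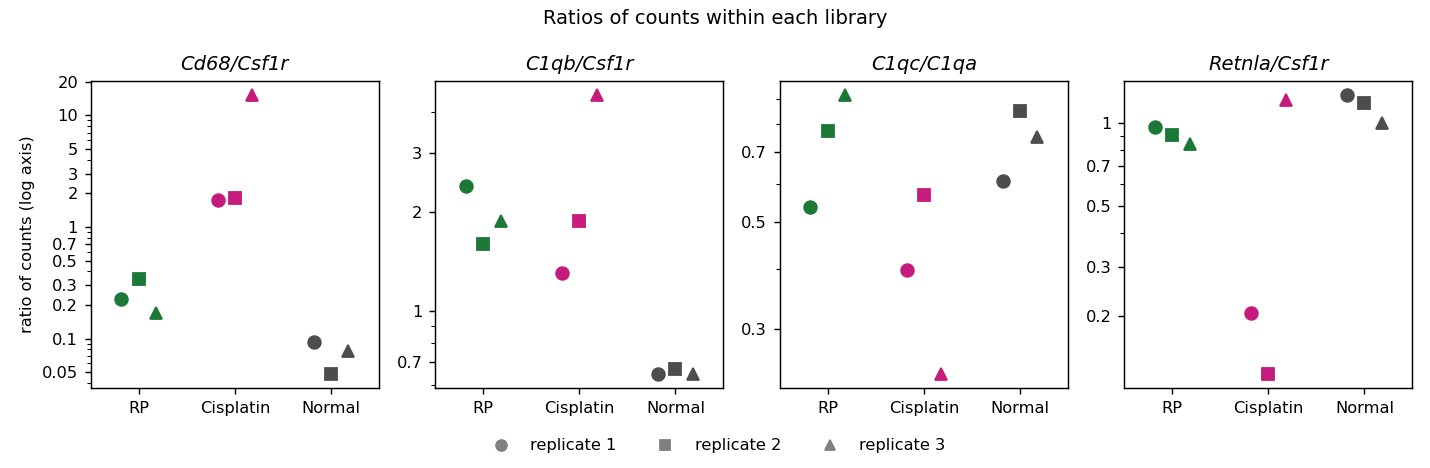
Ratios of read counts of gene pairs within each library (vertical axes, logarithmic) in RP, Cisplatin and Normal, with a symbol for each replicate. Cd68 per Csf1r separates all 3 groups, and C1qb per Csf1r is higher in RP (1.60 to 2.38) and Cisplatin than in Normal (0.645 to 0.669).

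Libraries of a group differed in the same direction for most of the members. Of the 9 members other than Cd68, 7 were lowest among the Cisplatin libraries in replicate 3 and 7 were lowest among the RP libraries in replicate 1, whereas 8 were highest among the Normal libraries in replicate 2. Summed over these 9 genes, RP libraries had 123, 190 and 170 CPM, Cisplatin libraries 55.5, 70.8 and 25.1 CPM and Normal libraries 289, 370 and 322 CPM. The third Cisplatin library was not low for these genes alone. As percent of the Normal mean, summed fibroblast markers were at 27.0, 24.9 and 13.8 in the Cisplatin libraries. Endothelial markers were at 75.6, 55.0 and 64.7 there, and muscle fibre markers at 71.9, 75.3 and 95.5. Once each group's mean was removed, the Pearson r between pairs of the 9 members other than Cd68 over the 9 libraries ran from -0.48 to 0.97. The median was 0.72 over 36 pairs. Retnla and Ccr2 stood apart: their r with the others of the 9 ran from -0.48 to 0.23. For the 9 pairs with Cd68 the median was -0.17. These are descriptions of the same 9 libraries, which share depth and composition, and carry no p.

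All 10 genes passed the filter on low counts. By edgeR's quasi-likelihood test over all 12859 genes, 9 of the 10 genes were called lower (28.2% of all genes) and Cd68 higher (26.3%) in Cisplatin against Normal, where 54.5% of all genes were called. For RP against Cisplatin, 8 were called higher (24.6%), Cd68 lower (24.2%) and Lyz2 neither, with 48.8% of all genes called. For RP against Normal, Retnla and Ccr2 were called lower (0.319%), 0 were called higher (0.187%) and the other 8 were not called, with 0.505% of all genes called.

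The groups did not overlap for 9 genes lower (31.9% of all genes) and 1 higher (30.3%) in Cisplatin against Normal, which is 10 of 10 beside 62.2% of all genes. They did not overlap for 8 genes higher (29%) and 1 lower (27.8%) in RP against Cisplatin, beside 56.8% of all genes. They did not overlap for 7 genes lower (9.53%) and 0 higher (9.65%) in RP against Normal, beside 19.2% of all genes. Nothing is read from these counts, since the genes were chosen with the same contrasts known, and the comparisons share libraries.

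The wider macrophage programme was examined through genes outside the 10. Macrophage and myeloid lineage genes were mostly lower in Cisplatin: of the 23 tested out of 25, 14 fell and 2 rose, with a median log2 of -1.51, against a median of -0.08 over all genes; 28.2% of all genes fell and 26.3% rose. Aif1 (IBA1, an actin-bundling protein of macrophages) fell to 1.13 ± 0.876 CPM in Cisplatin, against 6.58 ± 0.553 CPM in Normal (log2 -2.51 ± 0.48, adjusted p = 0.000596). Cybb, the catalytic subunit of the phagocyte oxidase, fell by 2.03 on the log2 scale (adjusted p = 0.000321), and Sirpa, the receptor for the CD47 signal, fell by 2.29 (adjusted p = 4.17e-05). Maf, a transcription factor of resident macrophages that other muscle cells also express, fell by 2.31 (adjusted p = 2.59e-07). The macrophage antigen Adgre1 (F4/80) fell by 1.87 (adjusted p = 0.00827), and the leukocyte antigen Ptprc (CD45) fell by 1.15 (adjusted p = 0.0107). The genes that rose were Cd14, the lipopolysaccharide co-receptor (1.02 ± 0.32, adjusted p = 0.0152), and the interferon regulatory factor Irf8 (0.81 ± 0.25, adjusted p = 0.0141). Genes risen numbered 0 without the first Normal library and 1 without the second Cisplatin library. Adgre1, Ptprc and Irf8 were named after their values were seen.

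In RP against Cisplatin, 6 of these 23 lineage genes rose and 1 fell (median 0.67; 24.6% of all genes rose and 24.2% fell). Aif1 rose to 7.14 ± 1.12 CPM in RP, against 1.13 ± 0.876 CPM in Cisplatin (2.62 ± 0.47, adjusted p = 0.000512). Maf (2.39, adjusted p = 3.63e-07) and Sirpa (1.62, adjusted p = 0.000863) rose as well, and Cd14 fell (-1.502, adjusted p = 0.00177). Against Normal, edgeR called 0 of the 23 in RP, with 8 at an unadjusted p under 0.05; DESeq2 called 1 and limma-voom 0, and edgeR called 1 without the third Cisplatin library. The median there was -0.61, and 15 of 23 estimates were below 0.

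Genes typical of resident macrophages were lower as well. Of 18 tested out of 20, 15 fell and 0 rose in Cisplatin against Normal, with a median log2 of -2.91. No tested gene reached an unadjusted p under 0.05 in the upward direction, and DESeq2 and limma-voom called 0 risen. With a library left out, edgeR called 1 risen, unless that library was the first or second Cisplatin library. The scavenger receptor Marco, in this list but removed by the filter, had 124 reads in Cisplatin, against 4 in Normal. Of the 124, 96 came from the second Cisplatin library. Cd209g, also removed, had 0 reads in Cisplatin, against 31 in Normal. F13a1, the A subunit of coagulation factor XIII, fell to 6.32 ± 2.84 CPM in Cisplatin, against 48.9 ± 7.02 CPM in Normal (-2.93 ± 0.26, adjusted p = 9.64e-07). The galactose lectin Mgl2 fell to 0.528 ± 0.458 CPM, against 16.8 ± 2.55 CPM in Normal (-4.91 ± 0.50, adjusted p = 3.57e-06), and Cbr2, a carbonyl reductase, fell by 3.02 (adjusted p = 8.08e-06; -3.71 without the second Cisplatin library). Cd209d, a C-type lectin, had 1 read over the 3 Cisplatin libraries and 120 over the Normal libraries, a ratio of Normal to Cisplatin of 130 (95% counting interval 23.0 to 5195). Timd4, a receptor for phosphatidylserine on dying cells, had 0 reads in Cisplatin and 56 in Normal, and so was at least 20.3-fold lower in Cisplatin against a floor of 3 reads over the group. With Timd4 at that bound the median stayed at -2.91.

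In RP against Cisplatin, 15 of the 18 rose and 1 fell, with a median of 2.15. F13a1 rose to 23.9 ± 3.21 CPM in RP, against 6.32 ± 2.84 CPM in Cisplatin (1.90 ± 0.25, adjusted p = 4.86e-05), Clec10a to 12.5 ± 5.94 CPM, against 1.56 ± 0.838 CPM (2.97 ± 0.44, adjusted p = 0.000103), and Cbr2 to 21.1 ± 3.01 CPM, against 4.21 ± 2.91 CPM (2.29 ± 0.34, adjusted p = 0.000109; 2.98 without the second Cisplatin library). Timd4 had 39 reads in RP and 0 in Cisplatin, at least 12.0-fold higher against the same floor; the median was 2.15 with it at that bound. The gene that fell was Ninj1, a membrane protein, by 0.52 (adjusted p = 0.0391), named after its values were seen; genes fallen numbered 0 without the first or second Cisplatin library, and 2 without the third Cisplatin library, the third RP library or any of the Normal libraries. Against Normal, edgeR called 0 of the 18 in RP, with 6 at an unadjusted p under 0.05, and DESeq2 and limma-voom called 2 each; edgeR called 1 without the second Cisplatin or the second RP library and 2 without the third Cisplatin library. Some genes of this list have other sources in muscle, Lyve1 in lymphatic vessels for example.

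**Figure D4:**
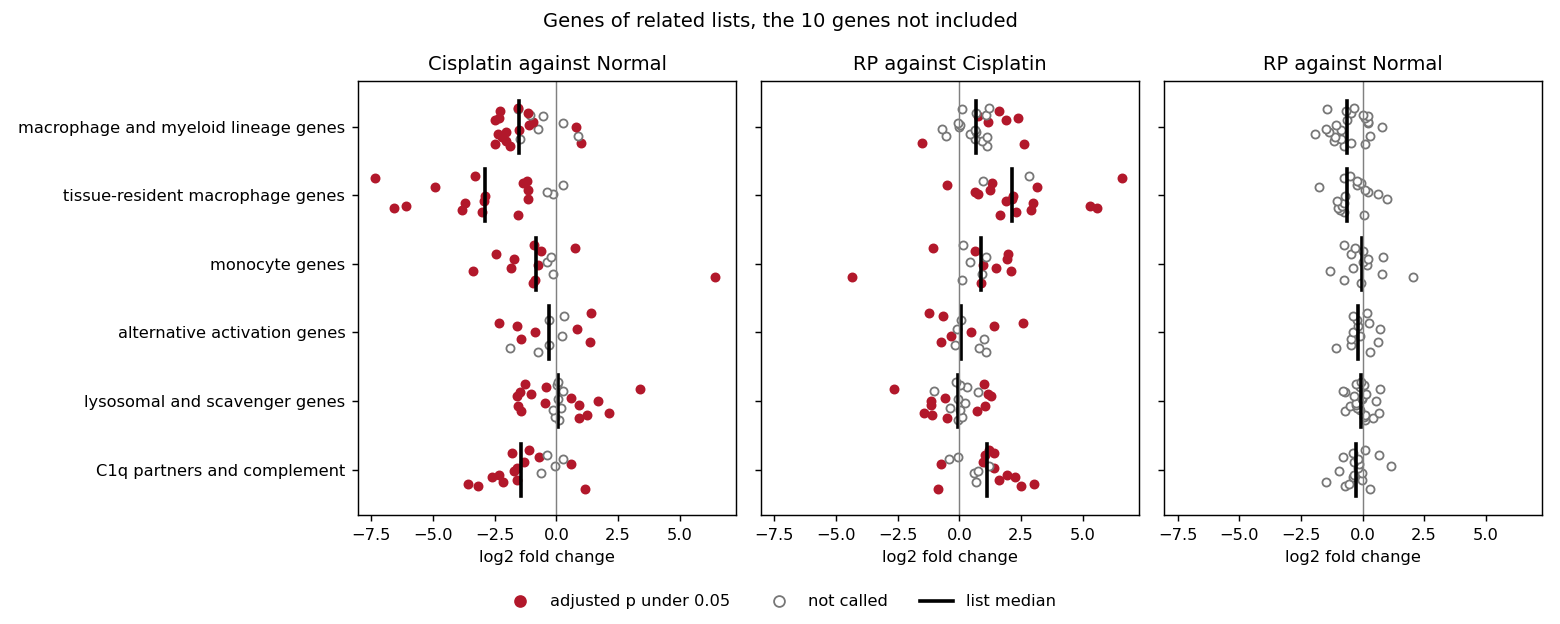
Log2 fold change (horizontal axis, shared) of each tested gene of 6 lists in the 3 comparisons; filled points have an edgeR adjusted p under 0.05 and black bars are list medians. Of these 6 lists, resident macrophage genes lie farthest below 0 in Cisplatin against Normal (median -2.91) and above 0 in RP against Cisplatin (median 2.15). Lysosomal genes spread to both sides. Of the lists not drawn, the same 2 medians were -2.73 and 2.23 for fibroblast, -5.30 and 3.41 for dendritic and MHC class II, and -7.49 and 2.34 for erythroid markers. They were -0.66 and 0.47 for endothelial and -0.19 and 0.25 for muscle fibre markers, -0.38 and 0.14 for ligands, and 1.11 and -2.88 for neutrophil markers.

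More monocyte genes fell than rose in Cisplatin. Of the 14 tested out of 20, 9 fell and 2 rose in Cisplatin against Normal (median -0.81), where 28.2% of all genes fell and 26.3% rose. With a library left out, 6 to 9 fell. In RP against Cisplatin 7 rose and 2 fell (median 0.89), where 24.6% of all genes rose and 24.2% fell. S100a4, a calcium-binding protein of motile cells, fell to 8.71 ± 2.83 CPM in Cisplatin, against 48.2 ± 15.5 CPM in Normal (-2.46 ± 0.29, adjusted p = 1.39e-05), and Fn1 (fibronectin, also a fibroblast product) fell by 3.37 (adjusted p = 2.14e-06). Chil3, which encodes the chitinase-like protein Ym1 of monocytes, neutrophils and alternatively activated macrophages, moved opposite to Retnla: it rose to 14.9 ± 9.21 CPM in Cisplatin, against 0.161 ± 0.185 CPM in Normal (6.44 ± 0.67, adjusted p = 4.26e-06). In RP it averaged 0.709 ± 0.206 CPM, against 14.9 ± 9.21 CPM in Cisplatin (log2 -4.37, adjusted p = 2.22e-05). Chil3 had 4 reads over the Normal libraries; its difference of Cisplatin from Normal was 7.69 without the first Normal library and 5.83 without the first Cisplatin library, and that of RP from Cisplatin was -3.76 without the first Cisplatin library. The other gene that rose in Cisplatin was Thbs1, which encodes the matrix protein thrombospondin-1 (0.77 ± 0.26, adjusted p = 0.0218), named after its values were seen. Risen monocyte genes in Cisplatin against Normal numbered 1 without the first or the third Normal library or the third Cisplatin library. For RP against Normal edgeR called 0 of the 14, with 4 at an unadjusted p under 0.05; DESeq2 called 1 and limma-voom 0, and edgeR called 1 without the second Normal or the second RP library.

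The ligands of the member receptors differed in direction. Il34, which signals through the CSF1 receptor, fell to 3.13 ± 2.81 CPM in Cisplatin, against 13.5 ± 1.08 CPM in Normal (-2.13 ± 0.42, adjusted p = 0.000809). It rose to 11.8 ± 1.22 CPM in RP (1.94 ± 0.42 against Cisplatin, adjusted p = 0.00185). The first Cisplatin library held 54 of the 82 Il34 reads of its group, and without it the differences were -3.15 in Cisplatin against Normal and 2.97 in RP against Cisplatin. Csf1, the other ligand of that receptor, averaged 15.4 ± 1.46 CPM in RP, 13.9 ± 7.87 in Cisplatin and 18.1 ± 4.06 in Normal, with overlapping groups and adjusted p of 0.769 for RP against Cisplatin and 0.387 for Cisplatin against Normal. Ccl2, the main ligand of CCR2, rose to 6.96 ± 5.18 CPM in Cisplatin, against 0.908 ± 0.282 CPM in Normal (2.93 ± 0.67, adjusted p = 0.00220), a call that limma-voom did not make. In RP it averaged 2.19 ± 0.899 CPM (-1.67 against Cisplatin, adjusted p = 0.0318), and that call was lost without the first or second library of either group and with limma-voom. The Cisplatin libraries held 72, 118 and 10 Ccl2 reads.

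Ccl7, a further CCR2 ligand, was at 1.48 ± 0.327 CPM in RP, 1.88 ± 1.64 in Cisplatin and 0.836 ± 0.427 in Normal and was not called in any comparison. Ccl8, which also attracts monocytes, had 0 reads in Cisplatin and 46 in Normal, at least 16.7-fold lower in Cisplatin. The stromal chemokine Cxcl12 fell (log2 -1.95, adjusted p = 7.81e-06), as did the eotaxin Ccl11 (-2.22, adjusted p = 0.000258) and Ccl5 (-2.25, adjusted p = 0.0165) in Cisplatin against Normal; the Ccl5 call was lost without the third Normal or the second Cisplatin library. Ccl6 (0.22, adjusted p = 0.659), Ccl9 (0.03, adjusted p = 0.947) and the fractalkine gene Cx3cl1 (0.94, adjusted p = 0.208) were not called there. In all, 11 of 22 ligands were tested, of which 5 fell and 1 rose in Cisplatin against Normal, and 4 rose and 1 fell in RP against Cisplatin. Without the third Cisplatin library 4 ligands rose in Cisplatin against Normal and 3 fell in RP against Cisplatin; with any of the RP libraries left out 2 rose in Cisplatin against Normal, and without the first or second library of Cisplatin or RP 0 fell in RP against Cisplatin. The IL-4 and IL-13 genes, whose products induce Retnla, had 0 reads in all 9 libraries.

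Genes of alternative activation were called at a share near that of all genes: of the 13 tested out of 15, 4 fell and 3 rose in Cisplatin against Normal, where 28.2% of all genes fell and 26.3% rose. For RP against Cisplatin 3 rose and 4 fell, where 24.6% of all genes rose and 24.2% fell. The transglutaminase Tgm2 rose by 1.42 (adjusted p = 8.52e-06) and the IL-4 receptor chain Il4ra by 1.36 (adjusted p = 0.000198) in Cisplatin, where Klf4 fell by 0.87 (adjusted p = 0.000327) and Pparg by 1.60 (adjusted p = 0.00454; -0.98 without the second Normal library). Fallen genes in Cisplatin numbered 2 without the first Normal or the third Cisplatin library. In RP against Cisplatin, fallen genes numbered 2 without the second Cisplatin library or with library size alone, and risen genes 1 without the third RP library.

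Lysosomal and scavenger genes, the setting of the Cd68 protein, rose in 7 and fell in 8 of 23 cases in Cisplatin against Normal (median 0.05), near the 26.3% risen and 28.2% fallen among all genes. The cholesterol exporter Npc1 rose to 561 ± 110 CPM in Cisplatin, against 53.7 ± 10.7 CPM in Normal (3.38 ± 0.20, adjusted p = 5.36e-08), and the cathepsins Ctsl (2.12, adjusted p = 1.51e-07) and Ctsd (1.24, adjusted p = 5.49e-06) rose with it. The progranulin gene Grn fell by 1.54 (adjusted p = 7.40e-06). In RP against Cisplatin 5 rose and 7 fell, Npc1 the most (-2.66, adjusted p = 3.41e-07). These genes are active in muscle fibres as well as in macrophages, and the part of each in the Cd68 values was not tested.

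Partners of C1q and complement genes were mostly lower in Cisplatin. Of 18 tested out of 19, 12 fell and 2 rose in Cisplatin against Normal (median -1.45), and 10 rose and 2 fell in RP against Cisplatin (median 1.11). The protease C1s1, a partner of C1q, fell to 6.22 ± 3.71 CPM in Cisplatin, against 38.6 ± 4.95 CPM in Normal (-2.62 ± 0.36, adjusted p = 4.12e-05), and rose to 29.6 ± 9.34 CPM in RP (2.24 ± 0.36 against Cisplatin, adjusted p = 0.000194). Lrp1, an endocytic receptor for apoptotic cells, fell by 1.80 (adjusted p = 0.000104) in Cisplatin. C1qbp, a mitochondrial protein named for binding C1q, rose by 1.17 in Cisplatin (adjusted p = 3.15e-06) and fell by 0.87 in RP against Cisplatin (adjusted p = 4.81e-05).

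The summed dendritic and MHC class II, fibroblast and endothelial markers were lowest in Cisplatin, though single markers differed. The 11 dendritic cell and MHC class II markers summed to 42.0 to 78.7 CPM in RP, 5.23 to 11.6 in Cisplatin and 179 to 247 in Normal. The 4 of 6 tested that fell in Cisplatin were the MHC class II genes H2-Aa, H2-Ab1, H2-Eb1 and Cd74, which macrophages express too. Of the dendritic markers themselves, Zbtb46 and Clec9a were not called, with 31 and 27 reads in Cisplatin, against 18 and 52 reads in Normal. Those removed by the filter were Xcr1, with 14 reads in Cisplatin, against 17 in Normal, and Ccr7, with 7 against 4. Flt3 and Cd209a were removed too, with 0 against 8 and 16. The 10 fibroblast markers summed to 2348 to 3292 CPM in RP, 514 to 1007 in Cisplatin and 3123 to 4339 in Normal, with 9 of 10 fallen in Cisplatin against Normal and 10 of 10 risen in RP against Cisplatin. The 10 endothelial markers summed to 411 to 548 CPM in RP, 295 to 405 in Cisplatin and 511 to 573 in Normal. Of these 10, 6 fell and 1 rose in Cisplatin against Normal, where 28.2% of all genes fell and 26.3% rose. With a library left out, 4 to 6 of them fell.

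Blood markers did not all move alike. The 7 erythroid markers summed to 304, 410 and 64.9 CPM in the RP libraries, 34.0 to 60.4 CPM in Cisplatin and 4159 to 8992 CPM in Normal. In the third RP library these were close to the Cisplatin range. The 9 members other than Cd68 summed to 123, 190 and 170 CPM in the RP libraries and 25.1 to 70.8 CPM in Cisplatin. The 13 neutrophil markers found summed to 9.93 to 21.9 CPM in RP, 59.8 to 179 in Cisplatin and 7.29 to 55.8 in Normal. In Cisplatin 3 of 7 tested rose and 0 fell. Lcn2 was the highest of those risen (84.1 ± 32.7 CPM, against 0.829 ± 0.302 CPM in Normal). It held a large part of the Cisplatin sum, whose mean was 134 CPM. Of those removed by the filter, Camp had 5 reads in Cisplatin, against 52 in Normal, Ngp 5 against 41 and Ltf 3 against 15. Elane and Mpo had 0, against 7 and 2, and Csf3r had 1 against 2. T, B and NK markers summed to at most 3.58 CPM in any library, and none of the 11 found passed the filter. The part of these cells in the members' differences was not tested.

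**Figure D5:**
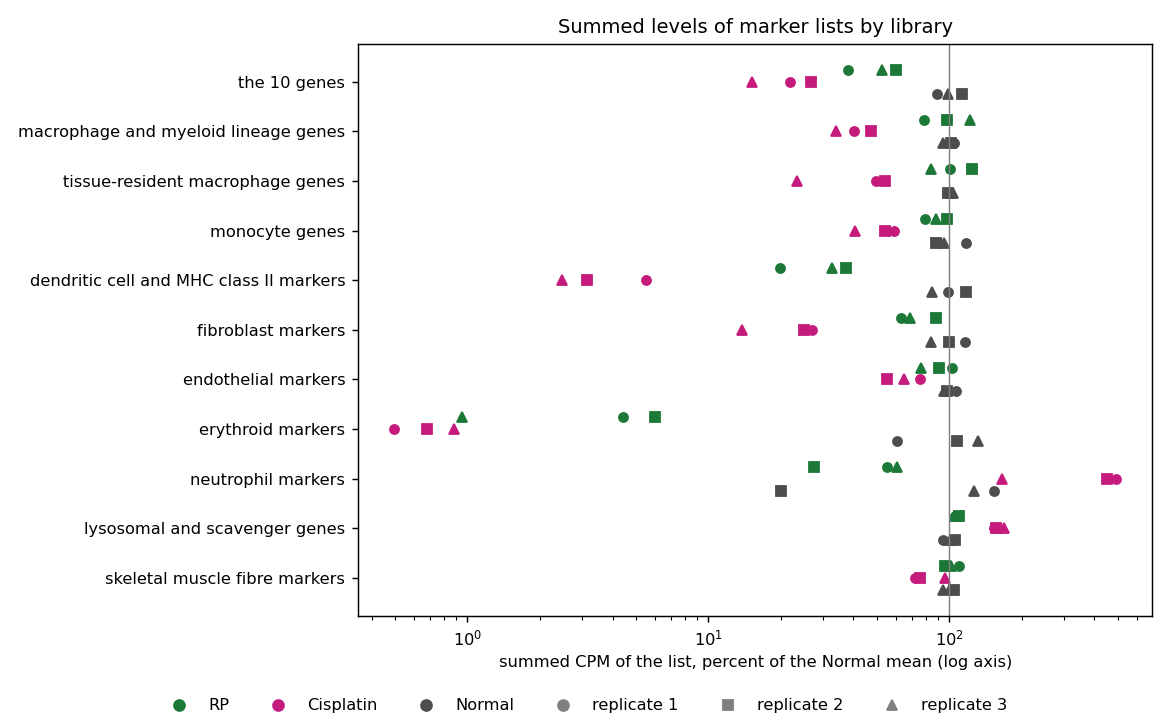
Summed CPM of marker lists in each library as a percent of the mean of the Normal libraries (horizontal axis, logarithmic), coloured by group with a symbol for each replicate. The 10 genes, Cd68 included, reach 38.1 to 59.9% in RP and 15.2 to 26.6% in Cisplatin, and erythroid markers stay at 5.99% or less in both. Without Cd68, which is highest in Cisplatin, the other 9 genes sum to 37.6 to 58.1% in RP and 7.68 to 21.7% in Cisplatin.

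The genes whose pattern over the 9 libraries was most like that of Csf1r, by Pearson r of log2 CPM among 9067 named genes with at least 5 CPM, were Anxa2 (0.986), Pid1 (0.984), Mmp19 (0.977), Mgp (0.977), Tmem198b (0.975), Mgl2 (0.973), Itpripl2 (0.966) and Ssx2ip (0.966). Mgl2 is the lectin of the resident macrophage list, and Mgp, a matrix protein that inhibits calcification, averaged 227 CPM in RP, 81.6 in Cisplatin and 407 in Normal. Those most like Cd68 were Ifi30 (0.988), Rnh1 (0.985), Htatip2 (0.983), Zfp524 (0.982), Pitpnb (0.978), Ep400 (0.967), Taf1a (0.964) and Ppap2a (0.964). Ifi30, a lysosomal thiol reductase, averaged 21.6 CPM in RP, 61.0 in Cisplatin and 20.1 in Normal. These likenesses rest on the same 9 libraries and mostly on the differences between the groups.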

How the data were processed

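The authors deposited raw read counts per gene symbol, 1 table of 23282 rows per sample. Trizol RNA was made into Lexogen QuantSeq 3′ libraries, per the labels' protocols. Per the submitters' processing notes, Bowtie2, edgeR and the mm10 build were used; for versions, counter, strandedness and gene models the answer is not given in the sources used here, so reads of overlapping genes cannot be told apart. The 79 rows sharing 35 symbols were summed.

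Tests used edgeR 4.0.16 in R 4.3.3 with filterByExpr (12859 genes), TMM scaling, 1 coefficient per group over all 9 libraries, glmQLFTest and a Benjamini-Hochberg adjusted p under 0.05 over all genes; SE is the log2 difference divided by the square root of F. The all-gene median log2 difference was -0.08 for Cisplatin against Normal (-0.15 with library size alone), 0.07 for RP against Cisplatin (0.21) and -0.01 for RP against Normal (0.06). The fit was also run on simulated data in which few genes changed and Cisplatin and RP did not differ. That run does not show how the fit behaves with as many changes as in these libraries. Counting intervals (exact Poisson, and Clopper-Pearson for ratios, 95%) and floors cover counting error only, since PCR copies of a molecule may be counted more than once. Replicates differed by more than sampling noise (chi-square per degree of freedom 12.1 to 31.0), so none was a copy.

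The members and the 14 other gene lists were chosen with earlier results of these data known. Named genes were all members; up to 4 called genes per list and comparison by p, with at least 1 CPM; the tested ligands; the 8 genes most like Csf1r and Cd68; and Lyz1 and Retnlg. Hmgxb3, Eif4a1 and genes given by reads alone were named after their values were seen. Some genes named by this rule appear in list counts only. Alternatives were no filter or a floor of 5 CPM in 3 libraries; scaling by RLE, by library size alone or without Rn45s; DESeq2 1.42.0; voom in limma 3.58.1; a replicate block; only the groups compared; and each library left out. Positions are from GENCODE M21 (GRCm38). Figures were drawn with matplotlib 3.10.9.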

Additional observations from a re-analysis of the deposited data

How the results depend on the processing

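The direction of all member differences that were called held under every alternative run, and 4 member values moved by more than the spread between replicates: Cd68 without the second RP library (-2.68 in RP against Cisplatin, -0.47 in RP against Normal) and Ccr2 without the first Cisplatin library (-3.77 in Cisplatin against Normal, 1.74 in RP against Cisplatin). Csf1r in RP against Cisplatin ranged from 0.97 to 1.73 and C1qc from 1.89 to 3.17; C1qc in Cisplatin against Normal ranged from -3.59 to -2.30. Risen lineage genes in Cisplatin against Normal numbered 1 with at least 5 CPM in 3 libraries and 0 to 3 with a library left out; risen resident genes numbered 1 with no filter and 0 to 1 with a library left out. In RP against Cisplatin, fallen lineage genes numbered 0 with at least 5 CPM, and fallen resident genes 0 with library size alone or at least 5 CPM, 2 with no filter and 0 to 2 with a library left out. In RP against Normal, 65 genes were called (24 risen, 41 fallen), 293 (123 and 170) with no filter, 229 (103 and 126) with DESeq2 and 22 to 116 (8 to 59 risen, 14 to 62 fallen) with a library left out; 24 were called fallen with library size alone. There, fallen lineage genes numbered 1 with no filter, DESeq2 or the compared groups alone, and 0 to 1 with a library left out. Fallen resident genes there numbered 2 with no filter, DESeq2, limma-voom or the compared groups alone, 1 with the replicate block and 0 to 2 with a library left out, and risen ones 1 with no filter. The cause of these changes was not tested. Deviations of same-numbered libraries from their group means had r from -0.14 to 0.17. Differently numbered libraries were not compared, so whether the numbers pair the samples was not settled. With the replicate number as a block, 6988 genes were called in Cisplatin against Normal (7012 without it). The same block gave 6292 in RP against Cisplatin (6277) and 61 in RP against Normal (65). Depth limits Lyz2, Ccr2 and Retnla in Cisplatin, where libraries held 6 to 42 reads.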

Other observations

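Several myeloid genes did not pass the filter on low counts and are given as reads summed over the 3 libraries of a group. Marco, a scavenger receptor of some resident macrophages, had 14 reads in RP, 124 in Cisplatin and 4 in Normal, of which 96 came from the second Cisplatin library. The cytokine gene Il1b had 9 reads in RP, 35 in Cisplatin and 4 in Normal, and Il6 had 4, 15 and 3. Itgax (CD11c) had 3 reads in RP, 0 in Cisplatin and 15 in Normal, and Mertk, a receptor for the uptake of dying cells, had 2, 9 and 19. The lectin Cd209g had 12, 0 and 31.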
